A study of Mus musculus with 22 samples.

Results

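The immediate early response genes described here are Fos, Fosb, Jun, Junb, Egr1, Atf3, Ier2, Nr4a1, Btg2 and Dusp1, 10 of the 55487 genes counted. They were listed by symbol, with no threshold on a measured value, and all 10 were found and passed the filter on low counts in both cohorts. RNA-seq of brown adipose tissue (BAT) was made from 22 mice, 1 library per mouse. CPEB2 is an RNA-binding protein that controls translation, and PRDM16 is a transcriptional coregulator of brown fat identity. The comparisons ask what loss of CPEB2, and PRDM16 supplied by a virus, do to the RNA of this tissue.

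The untreated cohort held 5 CPEB2-WT and 5 CPEB2-KO mice, aged 21 to 25 weeks by their labels. The AAV cohort crossed genotype with virus, AAV-GFP as the control or AAV-PRDM16, for 4 groups of 3 mice named WT + AAV-GFP and so on. Virus was injected into interscapular BAT at 16 weeks, and tissue was taken 9 weeks later. The deletion is carried in the germline and so is not limited to brown fat, and WT and KO mice came from heterozygous crosses on a C57BL/6 background. The virus was given to the fat pad alone, and the promoter driving PRDM16 is not given in the sources used here. The study's text states that untreated mice were kept without food for some hours before BAT was collected, whereas the labels give food at all times. Mice were killed with isoflurane and tissue was snap-frozen. The labels call all mice male.

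Libraries held 55320927 to 162721202 counts in the untreated cohort and 61636889 to 143005309 in the AAV cohort, and mitochondrial genes took 24.6 to 38.9% and 29.6 to 36.9% of them. Levels are given as CPM, each count as a share of its library's total after scaling by TMM factors. Cpeb2 was 7.69 to 14.3 CPM in the 5 untreated WT libraries and 2.10 to 5.78 CPM in 4 of the 5 KO libraries. The library labelled KO 1 held 11.7 CPM, within the WT range. In the AAV cohort Cpeb2 was lower in every KO library, at 4.33 to 5.55 CPM against 10.5 to 14.0 CPM. Against the labels, 6 of the 10 untreated libraries held at most 1.17 CPM of the summed transcripts of the Y-linked genes Uty, Kdm5d, Eif2s3y and Ddx3y, and at least 104 CPM of Xist. Those with Y-linked transcripts, at 77.1 CPM or more, were WT 1, WT 2, WT 4 and KO 2, and WT 4 also held 14.0 CPM of Xist. Over all genes WT 1 and WT 2 differed from WT 3 to WT 5 by a median chi-square per gene of 37.1 to 52.9. It was 11.3 between WT 1 and WT 2 and 13.3 to 25.7 among the other 3. Pairs of untreated KO libraries ranged more widely, from 12.5 for KO 3 and KO 4 to 84.4 for KO 2 and KO 5. Fold changes between untreated KO and WT are also given without KO 1 and within the libraries that lack Y-linked transcripts. The correlations of Fos are also given within the latter libraries. The spread, the other correlations and the genes most alike are given neither way. Ucp1 was at 1184 CPM or more in every library, and Ucp1, Cidea and Plin1 were the highest of the brown adipocyte marker list.

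Immediate early genes are transcribed within minutes of a stimulus, without new protein synthesis, because the factors that switch them on are already in the cell. Growth factors act through the MAP kinase cascade on serum response factor and its ternary complex partners, and hormones that raise cAMP, noradrenaline in brown fat among them, act through CREB. Most of their RNAs decay fast. Fos, Fosb, Jun and Junb encode subunits of the dimeric AP-1 transcription factor, Egr1 a zinc-finger factor, Atf3 a stress-induced factor of the ATF/CREB family and Nr4a1 an orphan nuclear receptor. Ier2 encodes a small nuclear protein, Btg2 an antiproliferative protein that binds deadenylases, and Dusp1 a phosphatase that switches MAP kinases off. In tissue they are known to respond to handling, anaesthesia and dissection as well as to physiological stimuli.

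The stretch of 250 bases before the transcription start was read for 8 members from RefSeq promoters of build GRCm38.p6, with Egr1 and Ier2 not analysed here. The core of the cAMP response element (CRE), TGACG on either strand, stood in 7 of the 8, against 17.8% of 32851 promoter stretches of the same length. The full CRE, TGACGTCA, which holds the core on each strand, stood in Btg2 and Dusp1, against 1.55% of the stretches. Jun held the related letters TTACCTCA and TGACATCA, which 0.728% and 2.93% of the stretches hold. GCGNGGGCG, the letters bound by EGR factors, stood in Fosb, Nr4a1 and Btg2, against 4.70%. TGANTCA, the letters of the AP-1 site, stood in none of the 8, against 6.75%. Median GC content was 67.4% in the 8 and 52.4% over all stretches. Such matches describe letters only, and no binding was measured.

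Shown because they hold these elements, 5′ to 3′ on the gene's own strand and ending at the base before the start, are the stretches of Fos (chr12:85473640-85473889, plus strand), Jun (chr4:95052223-95052472, minus), Nr4a1 (chr15:101266596-101266845, plus) and Btg2 (chr1:134079156-134079405, minus). Capitals mark CRE cores (CGTCA where they lie on the other strand) in Fos and Nr4a1, the full CRE in Btg2 and both CRE-like elements in Jun.
Fos: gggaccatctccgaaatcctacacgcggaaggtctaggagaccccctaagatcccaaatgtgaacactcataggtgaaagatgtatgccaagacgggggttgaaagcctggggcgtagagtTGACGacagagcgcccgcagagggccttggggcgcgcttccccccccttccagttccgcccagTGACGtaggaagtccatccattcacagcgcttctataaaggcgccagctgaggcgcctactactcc
Jun: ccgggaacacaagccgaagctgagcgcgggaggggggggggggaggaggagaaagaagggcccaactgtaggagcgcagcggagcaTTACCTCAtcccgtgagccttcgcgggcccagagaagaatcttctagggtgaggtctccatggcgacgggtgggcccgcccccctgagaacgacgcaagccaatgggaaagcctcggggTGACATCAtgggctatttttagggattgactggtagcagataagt
Nr4a1: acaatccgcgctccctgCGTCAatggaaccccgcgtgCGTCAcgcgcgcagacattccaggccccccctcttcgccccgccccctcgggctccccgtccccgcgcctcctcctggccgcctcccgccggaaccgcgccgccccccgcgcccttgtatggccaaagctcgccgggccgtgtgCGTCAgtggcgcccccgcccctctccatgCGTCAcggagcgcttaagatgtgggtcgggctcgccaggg
Btg2: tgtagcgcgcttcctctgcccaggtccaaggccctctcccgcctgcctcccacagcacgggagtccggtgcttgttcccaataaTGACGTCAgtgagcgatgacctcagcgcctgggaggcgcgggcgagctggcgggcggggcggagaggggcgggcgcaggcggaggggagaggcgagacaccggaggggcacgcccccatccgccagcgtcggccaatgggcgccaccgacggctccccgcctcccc
Counted in bases from the start, the cores began at -129 and -66 in Fos, where a TATAAA box began at -33, and 4 of them lay between -233 and -40 in Nr4a1. The full CRE began at -166 in Btg2 and at -143 in Dusp1.

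In untreated BAT the Fos family varied most from mouse to mouse. Fos was 0.596, 10.8, 19.4, 106 and 6.80 CPM in WT mice 1 to 5 and 25.7, 303, 25.7, 60.0 and 14.2 CPM in KO mice 1 to 5. Fosb was 0.429, 12.0, 68.7, 289 and 27.5 CPM in WT and 213, 529, 95.2, 159 and 134 CPM in KO. For both genes WT 1 was the lowest and KO 2 the highest of the 10 libraries, WT 4 stood above most KO libraries, and the groups overlapped. The ratio of the highest to the lowest library was 1231-fold for Fosb and 509-fold for Fos, whose lowest counts were 49 and 68 reads.

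Jun, whose protein pairs with Fos proteins, had a floor that Fos lacked. It was 64.5, 106, 104, 254 and 72.9 CPM in WT and 119, 475, 103, 154 and 92.5 CPM in KO, a range of 7.37-fold. Junb, its relative, was 11.2, 29.6, 66.3, 121 and 20.7 CPM in WT and 62.3, 270.3, 84.4, 120.2 and 159.8 CPM in KO. In Junb 3 WT libraries lay below every KO library and WT 3 and WT 4 within their range. The Junb locus overlaps Prdx2 on the other strand, and whether the counting used strand is not given in the sources used here.

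Among the other transcription factors, Egr1 was 7.77, 119.9, 88.1, 303 and 24.4 CPM in WT and 108, 421, 90.1, 149 and 93.3 CPM in KO. Atf3 was 1.88, 4.94, 43.9, 83.1 and 5.77 CPM in WT and 56.9, 125, 22.2, 24.2 and 23.8 CPM in KO. Nr4a1 differed in its order: it was 52.0, 559, 227, 240.4 and 152 CPM in WT and 103, 320.3, 197, 251 and 139 CPM in KO. Its highest library was WT 2, where Fos was only 10.8 CPM, and it was the only member not highest in KO 2.

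Btg2 and Dusp1 encode proteins that restrain growth and MAP kinase signalling. Btg2 was 9.75, 40.3, 74.6, 173 and 19.2 CPM in WT and 98.0, 211, 73.2, 77.5 and 45.7 CPM in KO. Dusp1 was 66.5, 78.4, 179.7, 194 and 67.8 CPM in WT and 128, 239, 103, 99.7 and 112 CPM in KO, the narrowest range of the 10 at 3.59-fold. Ier2 was 7.54, 28.3, 62.6, 92.8 and 23.5 CPM in WT and 39.7, 199, 56.6, 103 and 79.2 CPM in KO. Dusp1 overlaps the abundant Ergic1 on the other strand, and without strand the reads of the pair cannot be told apart.

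Read across genes, the same libraries held the extremes. WT 1 was the lowest of the 10 libraries for all 10 members and KO 2 the highest for 9, whereas WT 4 was second highest for 7 and WT 5 second lowest for 7. The members summed to 222 CPM in WT 1, 421 in WT 5, 1856 in WT 4 and 3093 in KO 2, and to 850.2 to 1197 CPM in the other 6. The 2 lowest sums and the second highest were all in WT libraries, and no KO library summed below 850.2 CPM.

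**Figure D1:**
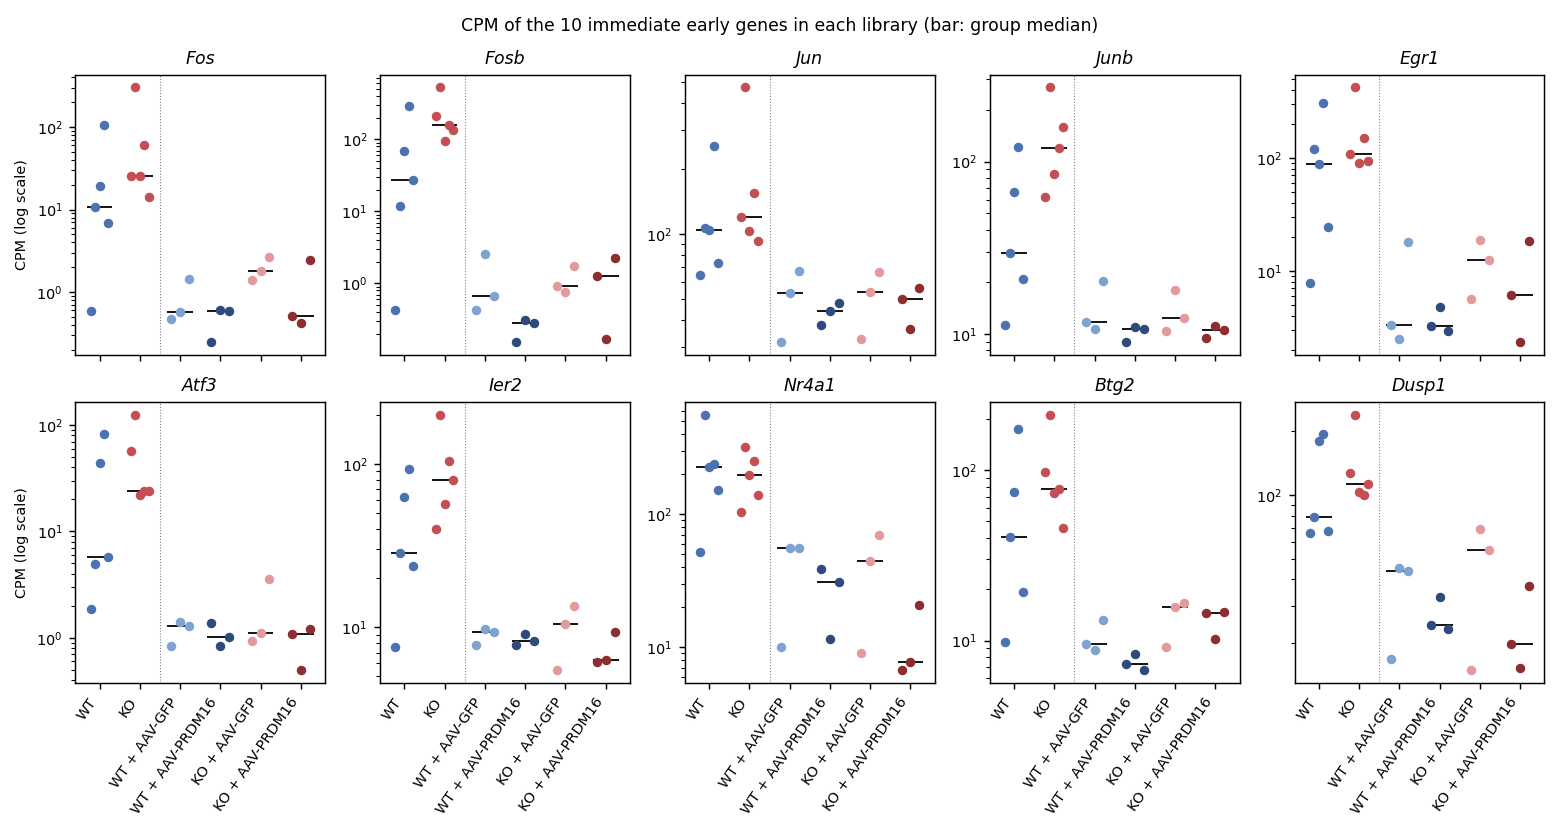
Each panel gives 1 gene, with CPM on a logarithmic axis against the 6 groups, a point per library in order of mouse number and a bar at the group median; the dotted line parts the cohorts, which were not tested against each other. WT 1 is the lowest untreated point in every panel and KO 2 the highest in all panels but Nr4a1, and most AAV points lie below the untreated ones.

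Marker genes of other cells and of stress were set beside this order. The summed CPM of 6 macrophage markers was 304 in WT 4, 396 in KO 1 and 241 in KO 2 and 33.8 to 101 in the other 7 libraries, and none of the 6 markers was at 0 throughout a group. The summed CPM of 8 skeletal muscle markers was 6154 in KO 2 and 13.9 in WT 4, both libraries with high members, and 159 in WT 1. Hspa1a, an inducible heat shock gene, was 57.3 CPM in WT 4, 56.4 in KO 2 and 2.46 in WT 1, the 2 highest and the lowest untreated values. It is 1 of 10 listed heat shock genes, and the others are not given per library here. The 10 summed to 1676 to 2309 CPM in untreated WT and 997 to 2121 CPM in KO, so the order of Hspa1a does not stand for the list. The part of cell composition and tissue handling in these levels was not tested, and in bulk tissue fewer cells of a type and less RNA per cell cannot be told apart.

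Between untreated KO and WT, 9 of the 10 members had a positive fitted log2 fold change, as did 51.8% of all genes. Members varied together from mouse to mouse, so these directions are not separate results. At an adjusted p of 0.05 (edgeR quasi-likelihood test, Benjamini-Hochberg) 0 members passed, as did 0 of 17869 genes (0%). Only Junb had an unadjusted p under 0.05, against 2836 genes (15.9%), and DESeq2 and limma-voom also called 0 members. The fitted changes were 1.58 ± 1.11 (SE) for Fos, 1.50 ± 1.06 for Fosb, 1.49 ± 0.60 for Junb and 1.15 ± 0.60 for Ier2, with edgeR adjusted p-values of 0.441, 0.443, 0.305 and 0.339. These 4 passed the thresholds the study set for this cohort, a change of 2-fold or more with an FDR no higher than 0.5, as did 10.8% of all genes. Atf3, Egr1, Btg2, Jun, Dusp1 and Nr4a1 did not, with log2 changes of 0.85, 0.66, 0.67, 0.65, 0.22 and -0.28. The members' median was 0.76 against 0.04 over all genes, and no member had groups that did not overlap, against 1.40% of genes.

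The size of the median and the count past the thresholds depended on single libraries, while the median stayed positive in each of these fits. The count of all genes past the thresholds varied as well, over the range given in the closing section. The members' counts alone therefore do not set them apart from other genes. Without KO 2 the members' median log2 change was 0.19 and 1 member passed the study's thresholds, without WT 4 the median was 1.58 and 8 passed, and without WT 5 1 passed. Without WT 1, WT 2 or KO 5 no member and no gene passed them, with medians of 0.52, 0.65 and 0.94. Without both WT 1 and WT 2 the median was 0.41 and 0 members passed. Without KO 1, the library with Cpeb2 in the WT range, 4 passed and the median was 0.80. Among the 6 libraries without Y-linked transcripts, 2 WT and 4 KO, the median was 0.69, and with the presence of these transcripts as a covariate it was 1.09, with 0 members and 0 genes past the thresholds in both. Jun and Dusp1 were slightly negative without KO 2, at -0.01 and -0.05.

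In the AAV cohort the members were low throughout. Fos was 0.246 to 2.67 CPM and Fosb 0.152 to 2.52 CPM over the 12 libraries, with as few as 21 and 13 reads. For 9 members every untreated library but WT 1 lay above every AAV library, and the exception, Dusp1, had 8 untreated libraries above the highest AAV library at 69.4 CPM. All 10 members in WT 1 lay within the range of the AAV libraries, as with Fos at 0.596 and Egr1 at 7.77 CPM, against 2.32 to 18.8 CPM of Egr1 in AAV libraries. The cohorts differ in virus, injection and age, in Y-linked transcripts, which all 12 AAV libraries and 4 untreated ones carried, and in the table they were counted in, and the study's text states food deprivation for untreated mice only. These cannot be told apart, so no test was made between them.

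Per length, as median CPM per kb of exon over the libraries of a cohort, the order of the genes also differed between cohorts. In untreated BAT Nr4a1 led at 60.3, followed by Ier2 at 39.2, Jun at 33.0, Junb at 32.8 and Dusp1 at 32.5. Btg2 followed at 27.0, Egr1 at 22.4, Fosb at 18.4, Atf3 at 11.1 and Fos at 9.58. In the AAV cohort Jun led at 15.3, ahead of Dusp1 at 8.68 and Nr4a1 at 7.35, and Fos and Fosb came last at 0.254 and 0.115. The ranges of neighbouring genes overlapped throughout both orders.

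Among the members Btg2 had the lowest p for genotype under AAV-PRDM16 and over both viruses, and Fos under AAV-GFP (log2 change 1.24 ± 0.65, edgeR adjusted p 0.618). It was 9.52, 8.84 and 13.3 CPM in WT + AAV-GFP, 9.18, 15.6 and 16.6 in KO + AAV-GFP, 7.28, 8.30 and 6.73 in WT + AAV-PRDM16 and 14.4, 10.2 and 14.7 in KO + AAV-PRDM16. Every KO + AAV-PRDM16 library thus lay above every WT + AAV-PRDM16 library, while 1 KO + AAV-GFP library lay inside the WT + AAV-GFP range. Averaged over both viruses its log2 change was 0.60 ± 0.16 (SE), with an edgeR adjusted p of 0.0750, so it was not called. DESeq2 (adjusted p 0.00881) and limma-voom (0.0211) did call it, and both called more genes there than edgeR, as counted in the closing section. Over the 19 fits made the adjusted p of Btg2 ran from 0.00881 to 0.171. Within AAV-PRDM16 its log2 change was 0.82 ± 0.23, with an edgeR adjusted p of 0.166 and a range of 0.0278 to 0.456 over 20 fits.

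Fos had a positive KO against WT difference under each virus that did not pass the test. It was 0.475, 0.569 and 1.44 CPM in WT + AAV-GFP and 1.42, 1.79 and 2.67 in KO + AAV-GFP, and 0.246, 0.608 and 0.588 in WT + AAV-PRDM16 and 0.515, 0.426 and 2.44 in KO + AAV-PRDM16. The highest WT + AAV-GFP library lay just above the lowest KO + AAV-GFP one, and under AAV-PRDM16 2 of the 3 KO libraries lay within the WT range. Its mean log2 change was 1.22 ± 0.47, with an edgeR adjusted p of 0.184. Fosb was 0.421, 2.52 and 0.678 CPM in WT + AAV-GFP, 0.924, 0.763 and 1.72 in KO + AAV-GFP, 0.152, 0.310 and 0.279 in WT + AAV-PRDM16 and 1.28, 0.167 and 2.27 in KO + AAV-PRDM16. Under AAV-PRDM16 its log2 change was 2.30 ± 0.85, with an edgeR adjusted p of 0.266, and 1 KO library lay within the WT range.

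No member passed an adjusted p of 0.05 in any genotype comparison of this cohort by edgeR, against 0.0529% of genes under AAV-GFP, 0.0476% under AAV-PRDM16 and 2.18% over both viruses. At an unadjusted p under 0.05 there were 0 members (9.18% of genes), 2 (Fosb and Btg2, 13.7%) and 2 (Btg2 and Fos, 18.3%). DESeq2 and limma-voom each called 1 member, Btg2, in the latter comparisons, where both called more genes than edgeR. The study's thresholds were passed by 0 members under AAV-GFP (1.80% of genes), by Fosb and Fos under AAV-PRDM16 (4.85%) and by Fosb and Fos over both viruses (4.92%). No member's groups failed to overlap under AAV-GFP, against 13.4% of genes, and Btg2 alone did so under AAV-PRDM16, against 22.8%. The members' median log2 change was 0.26, 0.08 and 0.18, against 0.01 over all genes in each of the 3. The first was -0.09 without KO + AAV-GFP 3 and 0.55 without KO + AAV-GFP 1, and the second -0.02 without KO + AAV-PRDM16 3 and 0.20 without KO + AAV-PRDM16 2. The third was 0.03 without KO + AAV-GFP 3 and 0.36 without KO + AAV-GFP 1. Jun, Junb and Ier2 had means over both viruses within 0.07 of 0 on the log2 scale.

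For AAV-PRDM16 against AAV-GFP no member was called. Over both genotypes all 10 members had a negative log2 change, whereas 48.4% of all genes had a positive one. Here too members varied together, so their shared direction is not 10 separate results. The members' median log2 change was -0.62 against -0.01 over all genes. Nr4a1 showed the largest, at -1.20 ± 0.54 with an edgeR adjusted p of 0.522. It was 10.0, 55.9 and 55.7 CPM in WT + AAV-GFP, 38.7, 11.5 and 30.7 in WT + AAV-PRDM16, 9.09, 44.5 and 69.6 in KO + AAV-GFP and 6.77, 7.77 and 20.8 in KO + AAV-PRDM16. The groups overlapped in both genotypes, with 1 AAV-GFP library of each at 9.09 to 10.0 CPM. In WT alone all 10 were negative and in KO 9, the exception being Fosb, whereas 47.9% and 48.5% of all genes were positive. Fosb had -1.09 ± 0.57 over both genotypes, from -2.28 ± 0.85 in WT and 0.11 ± 0.79 in KO. The values over both were for Fos -0.80 ± 0.47, Egr1 -0.80 ± 0.56, Dusp1 -0.67 ± 0.36, Atf3 -0.57 ± 0.35 and Junb -0.44 ± 0.17. Btg2, Ier2 and Jun had -0.29, -0.27 and -0.17.

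By edgeR 0 members passed an adjusted p of 0.05 for the virus in WT (0% of genes), in KO (0%) and over both genotypes (0.0370%), nor did any with DESeq2 or limma-voom. At an unadjusted p under 0.05 there were 2 in WT (Fosb and Btg2, against 7.29% of genes) and 1 in KO (Nr4a1, against 6.41%). Over both there were 2 (Nr4a1 and Junb, against 9.09%). The study's thresholds were passed by 0 members in WT (1.46% of genes), in KO (2.15%) and over both (4.49%). Fosb and Btg2 were lower in every WT + AAV-PRDM16 library than in any WT + AAV-GFP library. These were 2 of 10 members, against 1467 of 18899 genes lower in this way and 14.2% apart in either direction. In KO no member was lower in this way, against 1144 genes, with 9.43% apart in either direction. No interaction of genotype and virus was called for any member, with an edgeR adjusted p of 0.9998 or more for each and 0% of genes at either threshold, and the lowest unadjusted p was 0.0594 for Fosb, whose interaction was 2.39 ± 1.15.

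**Figure D2:**
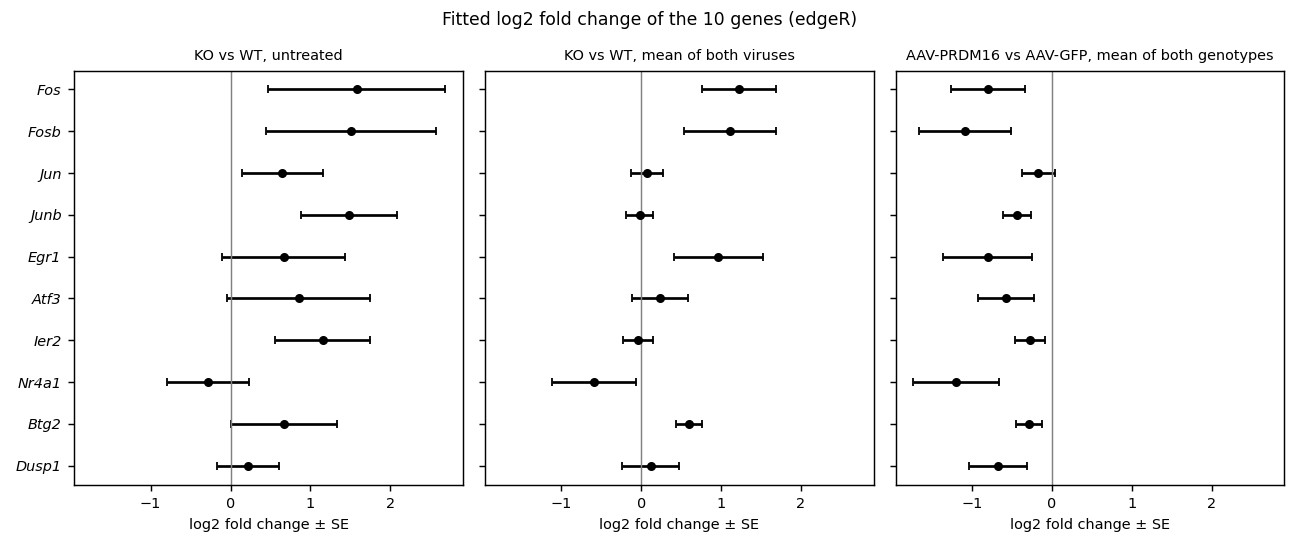
Points are fitted log2 fold changes with bars of 1 SE for the 10 genes in untreated KO against WT, in KO against WT over both viruses and in AAV-PRDM16 against AAV-GFP over both genotypes. Untreated bars are wide and mostly right of 0. In the middle panel Btg2 at 0.60 lies farthest from 0 for the width of its bar. All 10 points lie left of 0 in the right panel.

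The AAV comparisons share their libraries: the genotype and virus contrasts use the same 12. Markers of other cells moved beside the members there. The 6 T cell markers had a median log2 change of -3.12 for AAV-PRDM16 over both genotypes and the 6 macrophage markers one of -1.07, with all members of both lists negative and none called at an adjusted p of 0.05. Summed macrophage markers were 44.8 to 107 CPM in WT + AAV-GFP, 117 to 300 in KO + AAV-GFP, 32.9 to 43.0 in WT + AAV-PRDM16 and 56.3 to 75.9 in KO + AAV-PRDM16, and none of the 6 was at 0 throughout a group. Summed T cell markers were 1.51 to 26.6 CPM with AAV-GFP and 0.714 to 2.19 with AAV-PRDM16. Summed skeletal muscle markers stayed at or below 1.59 CPM except in 1 KO + AAV-GFP library, at 95.2 CPM, and 1 WT + AAV-PRDM16 library, at 27.0 CPM. Over both viruses Csf1r of the macrophage list was called higher in KO, with a log2 change of 1.02, as were Col1a1 and Col3a1 of the fibroblast list, and Cidea and Cox8b of the brown adipocyte list were called lower. No gene of the skeletal muscle, smooth muscle, T cell, B cell, endothelial, Schwann cell or red blood cell lists was called in any of the 8 comparisons. The part of these cells in the members' values was not tested.

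Within groups, the members varied more than most genes. The pooled SD of log2 CPM among untreated mice of a genotype was 2.56 for Fosb, 2.26 for Fos, 1.80 for Atf3 and 1.60 for Egr1, against a median of 0.59 over 17869 genes. Those 4 lay in the top 10% of genes by this measure, with only 205 genes above Fosb. The other 6 ran from 0.66 for Dusp1 to 1.28 for Btg2, all above the median of all genes. Without WT 1 the SD fell to 1.47 for Fosb and 1.72 for Fos, and both, with Atf3 at 1.58, remained in the top 10%. With a prior count of 0.5 in place of 2, which lets rare genes spread further, Fosb and Fos stayed there and Atf3 and Egr1, at percentiles of 89.6 and 87.4, did not.

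In the AAV cohort SDs were smaller for 8 members and larger for Nr4a1 and Dusp1. Nr4a1 led at 1.23, followed by Fosb at 1.22, Egr1 at 1.17 and Fos at 0.90, against a median of 0.30 over 18899 genes, and these first 3 were in the top 10%, though not with a prior count of 0.5, where the highest percentile was 86.3. Btg2 at 0.33, Junb at 0.34 and Ier2 at 0.39 lay near the middle of all genes. The 57 tested genes of a wider list of activity-induced early genes had a median SD of 0.94 in the untreated cohort, where 9 were in the top 10%.

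**Figure D3:**
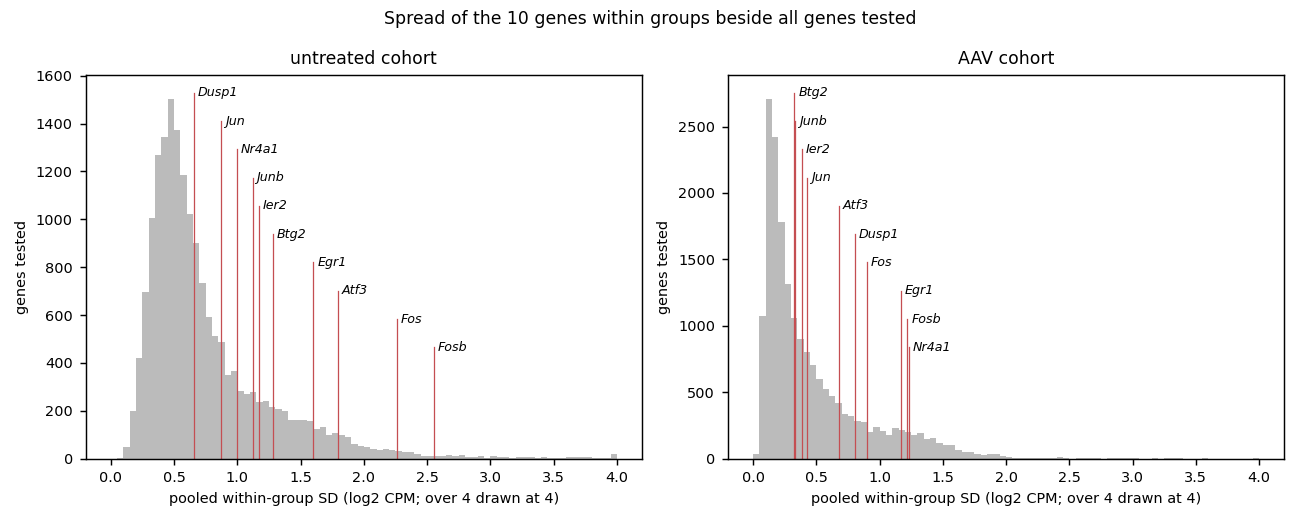
Histograms give the pooled within-group SD of log2 CPM of all genes tested, in the untreated cohort (left) and the AAV cohort (right), and red lines the 10 members. All 10 lie right of the medians of 0.59 and 0.30, with Fosb at 2.56 and Fos at 2.26 far in the upper tail on the left.

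Members varied together from mouse to mouse. After subtracting group means, Fos correlated with all 9 others across the 10 untreated libraries, with Pearson's r from 0.72 for Nr4a1 to 0.95 for Egr1, and 8 of the 9 relations had an adjusted p of at most 0.05 in a two-sided permutation test within groups. For Egr1 r was 0.95 (permutation p 0.000880, adjusted 0.00198) and Spearman's rho 0.85 (p 0.00256, adjusted 0.0107), and for Btg2 r was 0.94 (p 0.000360, adjusted 0.00162) and rho 0.82 (p 0.00833, adjusted 0.0174). Nr4a1 missed the threshold by r (p 0.0505, adjusted 0.0505) and passed it by rho, at 0.79 (p 0.0154, adjusted 0.0198), whereas Dusp1 passed by r, at 0.81 (p 0.00559, adjusted 0.00629), and missed it by rho, at 0.64 (p 0.0680, adjusted 0.0680). Without WT 1 and WT 4, the libraries farthest from the median of Fos, r ranged from 0.58 to 0.95. Among the 6 libraries without Y-linked transcripts r was 0.42 for Junb to 0.93 for Jun, and the 4 with them were too few for a value.

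In the AAV cohort the relation was looser. Across 12 libraries r ran from 0.41 for Atf3 to 0.81 for Egr1, with 0 of 9 past an adjusted p of 0.05 by r, and without the farthest libraries, WT + AAV-GFP 3 and KO + AAV-PRDM16 3, from 0.28 to 0.65. By Spearman's rho Jun (0.79, permutation p 0.00309, adjusted 0.0278) and Ier2 (0.74, p 0.00819, adjusted 0.0369) passed. All 45 pairs of members had a positive r in the untreated cohort, with a median of 0.84, and 43 did in the AAV cohort, with a median of 0.59. The median r of members with all genes was 0.02 and 0.03. Junb and Ier2 were the closest pair in untreated BAT at 0.97, and Nr4a1 and Dusp1 the loosest at 0.36. Whether libraries of a cohort were prepared or sequenced together is not given in the sources used here.

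**Figure D4:**
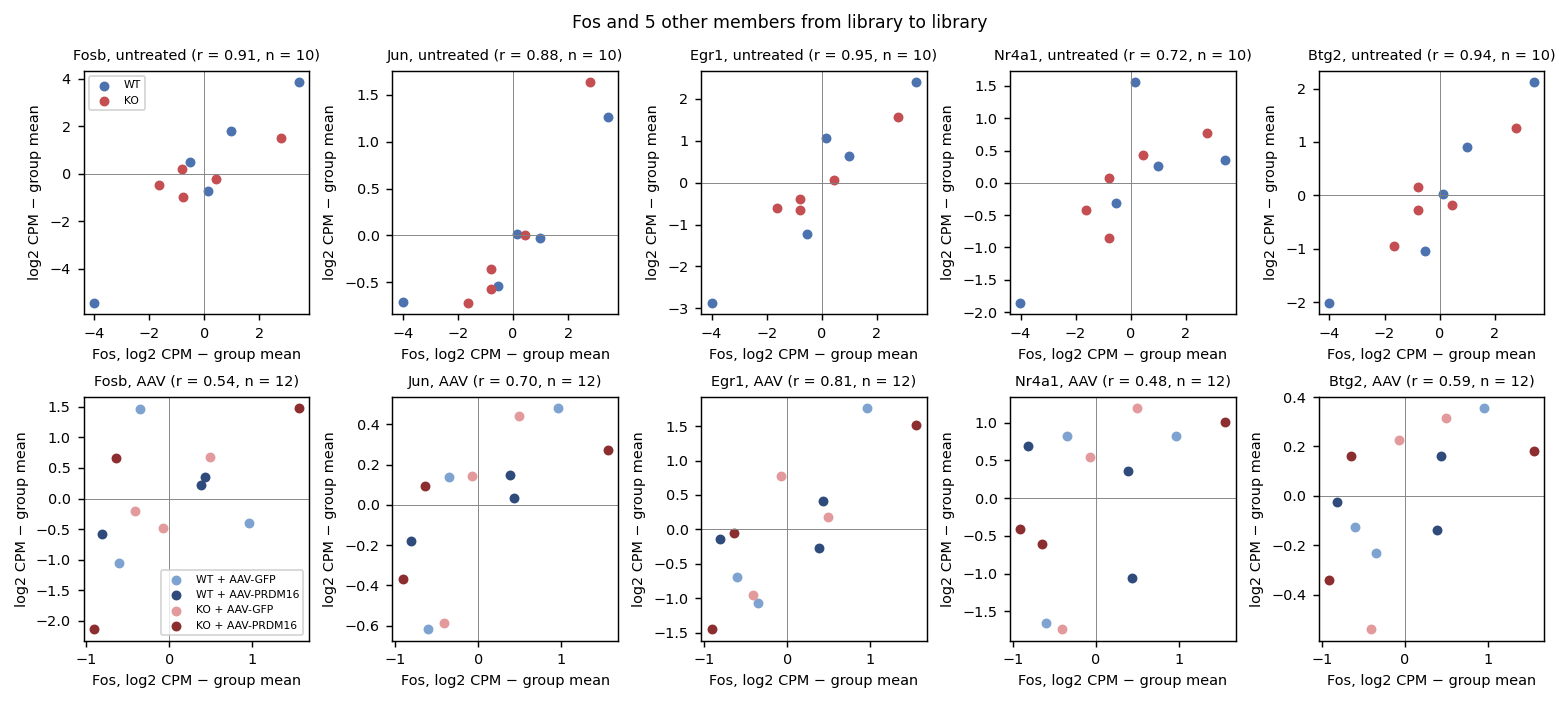
Each panel sets log2 CPM minus the group mean of 1 gene (vertical) against that of Fos (horizontal), with a point per library coloured by group, for the untreated cohort (top) and the AAV cohort (bottom). Points rise to the right, tightly for Egr1 (r = 0.95) and Btg2 (r = 0.94) above and more loosely below, with Nr4a1 at 0.72 and 0.48.

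Outside the members, the genes most alike were ranked by the lower of their Pearson r in the 2 cohorts with the members' mean centred log2 CPM, among 17188 genes. Trpm2, a cation channel of immune cells, came first at 0.88 and 0.85. Its level was low, at 0.149 to 1.94 CPM in untreated and 0.122 to 2.36 CPM in AAV libraries. Fosl2, another AP-1 subunit, followed at 0.88 and 0.83, the septin gene Sept6 at 0.88 and 0.83, Zfp36, which speeds decay of early-response RNAs, at 0.84 and 0.82, and Spry4, an inhibitor of receptor tyrosine kinase signalling, at 0.85 and 0.81. Fosl2 and Zfp36 are in the wider list of early genes and ran from 14.3 and 23.1 CPM in the lowest to 106 and 249 CPM in the highest untreated library. Of 56 genes of that list ranked, 4 were among the first 100, and their median r was 0.67 and 0.48, against 0.00 and 0.04 over all genes.

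Genes of the pathways upstream were read from lists of their known factors. None of the 6 serum response and ternary complex factor genes, led by Elk4, Srf and Mrtfb, and none of the 7 CREB factors and coactivators, led by Ep300, Crebbp and Crtc2, was called at an adjusted p of 0.05 in any of the 8 comparisons. Among 16 genes of the MAP kinase cascade, Rps6ka3, a ribosomal S6 kinase, was called higher in KO over both viruses, with a log2 change of 0.35 (edgeR adjusted p 0.0476). The wider early gene list, led by Cebpb, Rhob and Zfp36l2, had 48 of 57 genes positive in untreated KO against WT, where 51.8% of all genes were. Its median log2 change was 0.69 and 0 were called. Over both viruses Zfp36l2, a relative of Zfp36, was called lower in KO at -0.59 (edgeR adjusted p 0.0207). For AAV-PRDM16, 44 of 56 were negative, with a median of -0.14, while 48.4% of all genes were positive. Irf1, an interferon-responsive factor, was called lower at -0.61 (edgeR adjusted p 0.0453). No gene was called among 10 heat shock, 10 clock output and 6 adrenergically induced brown fat genes. The heat shock list had 6 of 10 positive in untreated KO against WT, with a median of 0.45, the clock list 4 of 10 with -0.35 and the adrenergic list 2 of 6 with -0.61.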

How the data were processed

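BAT RNA of 22 mice was sequenced from mRNA libraries. The authors deposited a table for each cohort with raw read counts per Ensembl gene and no normalization. The submitters' processing notes name bcl2fastq 2.20, Trimmomatic 0.36, HISAT2 and build GRCm38.p6, and the counting tool, its use of strand and of molecular identifiers are not given in the sources used here. Symbols and exon lengths came from GENCODE M21 (55141 of 55487 identifiers with a symbol).

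Counts were filtered (filterByExpr), scaled by TMM and tested in each cohort with all its groups by edgeR 4.0.16 (quasi-likelihood, Benjamini-Hochberg over all genes tested) in R 4.3.3, for 8 comparisons. Log2 CPM used a prior count of 2. Correlations used 100000 permutations within groups. DESeq2 1.42.0 and limma 3.58.1 (voom, quality weights), RLE scaling, other filters, leaving out libraries, a replicate block and a Y-linked covariate were alternatives. The fit on libraries without Y-linked transcripts and the spread without WT 1 were chosen after seeing the data. Code was tested on simulated data. All members were named, and from other lists the genes called and up to 3 most abundant, and 5 genes most like the members. Hspa1a was named outside this rule. Members and lists were chosen with earlier results of these data known. Replicates are separate mice, and pairs of libraries differed by a median chi-square per gene of at least 5.26. Motifs were searched on both strands.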

Additional observations from a re-analysis of the deposited data

Results flagged for a closer look

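Among 20 tests for a library far from its group, 1 was past the threshold: Dusp1 in KO 2, at 239 CPM against 99.7 to 128 CPM in the other KO libraries, where the gap to the next library took 0.718 of the group's range on the log2 scale, against a critical value of 0.71 for 5 libraries. Chance alone gives about 1 such case in 20 groups. KO 2 was also the highest of the 10 untreated libraries for 8 other members and carried Y-linked transcripts. Groups of 3 were not tested.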

How the results depend on the processing

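Directions and calls of the members' log2 changes not named here were unchanged under the alternatives run. DESeq2 gave more genes at an adjusted p of 0.05 in the AAV cohort: 243 (KO against WT, AAV-GFP), 619 (AAV-PRDM16), 152 (virus in WT), 266 (virus in KO), 1584 (genotype mean), 602 (virus mean) and 1 (interaction). Limma-voom gave 41, 754 and 1675 genes in the genotype comparisons, 1 for the virus in WT and 11 for the virus mean. RLE scaling gave 76 genes for the virus mean, no filter on low counts 144 there and 250 for the genotype mean, and a minimum of 0.5 CPM in 1 library 0 for the virus mean. Fits on only the 2 groups compared gave 0 genes for AAV-GFP and 2 for AAV-PRDM16. Among members, DESeq2 and limma-voom each called 1, Btg2, under AAV-PRDM16 and over both viruses.

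At the study's thresholds, members numbered 1 with DESeq2 and 2 with limma-voom under AAV-GFP, 1 with no filter and 4 with 0.5 CPM or only the 2 groups compared under AAV-PRDM16, 1 with DESeq2 or only the 2 groups compared for the virus in WT, 4 with limma-voom for the virus in KO, 3 for the virus mean and 0 for the genotype mean. In the untreated cohort they numbered 0 without WT mice 1 and 2, with the Y-linked covariate and among libraries without Y-linked transcripts. For the AAV cohort the shares of all genes past these thresholds in the alternative fits are not reported here. The members' counts there do not set them apart from other genes. Without group centring, 2 relations of Fos in the AAV cohort passed, those with Egr1 and Btg2.

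Replicate numbers do not pair the mice: correlations of same-numbered deviations ran from -0.292 to 0.111 (untreated) and from -0.0912 to 0.154 (AAV). With the replicate block, 7 untreated members and 1 AAV-GFP member passed the study's thresholds. The share of all genes past those thresholds with the block is not reported here, so these counts do not set members apart. At an adjusted p of 0.05, genes with the block numbered 1 (AAV-GFP), 5 (AAV-PRDM16) and 2 (virus mean).

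Reversals were of small values. In untreated mice Nr4a1 was 0.18 with limma-voom, 0.26 without WT 2 and 0.021 without WT mice 1 and 2. Dusp1 was -0.026 with limma-voom, -0.054 without KO 2, -0.068 without WT mice 1 and 2 and -0.14 among libraries without Y-linked transcripts, and Jun -0.010 without KO 2, with ranges over left-out libraries up to 0.48 for Dusp1 and 1.12 for Jun. Over both viruses limma-voom gave Junb 0.013 and Atf3 -0.018, and leaving out a library took Junb from -0.15 to 0.15, Ier2 from -0.19 to 0.10, Jun from -0.056 to 0.20, Dusp1 from -0.11 to 0.33 and Atf3 from -0.21 to 0.39. The cause was not tested.

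Leaving out 1 library at a time, untreated members at the study's thresholds ranged from 0 to 8 (median log2 change 0.19 to 1.58) and all genes at them from 0 to 3155. In the AAV cohort the genes are counted at an adjusted p of 0.05 and the members, unless stated, at the study's thresholds. The counts of genes and members are thus at unlike thresholds and cannot be compared. Under AAV-GFP genes ranged from 0 to 8 and members from 0 to 1 (median -0.09 to 0.55). Under AAV-PRDM16 genes ranged from 0 to 15 and members from 0 to 4 (-0.02 to 0.20). For the virus in WT genes ranged from 0 to 2 and members from 0 to 1 (-0.67 to -0.13). In KO genes ranged from 0 to 2 and members from 0 to 3 (-0.95 to -0.27). Over both genotypes genes ranged from 0 to 352 and members from 0 to 4 (-0.80 to -0.37). For the genotype mean genes ranged from 89 to 590.0, members at an adjusted p of 0.05 from 0 to 1 (Btg2 without KO + AAV-GFP 1) and at the study's thresholds from 0 to 3 (0.03 to 0.36), and interaction genes from 0 to 1 (-0.54 to 0.22). Low counts limit Fos and Fosb in the AAV cohort, where 1 library held 13 reads.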
